A study of Mus musculus with 4 samples.

Results

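Excitation-contraction coupling genes encode the machinery by which a muscle fibre turns the nerve's signal into a release of calcium. Here they were 10 genes, taken from the table by symbol: Chrna1, Chrng and Chrnd of the muscle acetylcholine receptor, Cacna1s, Cacng1 and Stac3 of the voltage sensor, the calcium release channels Ryr1 and Ryr3, and the calcium pumps Atp2a1 and Atp2a2. Of these, 9 had a row in the table of 19353 genes, and Cacna1s had none, so that its expression was not analysed here. The cells were MuSCs (muscle satellite cells, the stem cells of skeletal muscle) of the plantaris muscle of Pax7-CreERT2:Rosa-YFP mice, in which tamoxifen lets a Cre recombinase expressed under Pax7 switch on yellow fluorescent protein. The overloaded group had the distal tendons of gastrocnemius and soleus cut (tenotomy), the sham group had only the skin incision, and cells were sorted by YFP at 4 days. Tamoxifen, Cre and reporter were shared by both groups, and YFP stays on in the descendants of a marked cell, so that a sorted cell need not still express Pax7. Neither the age of the mice nor whether each library had mice of its own is given in the sources used here, so the p-values measure the spread between these samples, which may be technical.

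RNA was measured by CEL-Seq2, which captures transcripts at the poly(A) end and tags each captured molecule with a random barcode (unique molecular identifier, UMI), so that 1 count is 1 molecule whatever the transcript's length. Each library came from a tube of 100 cells, with 2 sham and 2 overloaded libraries. Sham tubes yielded 269683 and 260488 UMIs and overloaded tubes 387955 and 483528. Divided by 100 cells a tube, these were 2697, 2605, 3880 and 4835 UMIs per cell. Such totals also depend on capture and sequencing depth, so that values per tube without scaling are not a measure of RNA per cell. Levels are given as counts per 1000000 UMIs of the tested genes after TMM scaling (CPM), on which 1 UMI was worth 4.35, 4.53, 2.60 and 2.03 CPM in sham replicates 1 and 2 and overloaded replicates 1 and 2. Within a tube, a change in how many cells express a gene and a change in RNA per cell cannot be told apart. The satellite cell marker Pax7 was detected in all 4 libraries, with 118 and 107 UMIs in sham and 108 and 137 in overloaded libraries.

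At the neuromuscular synapse, acetylcholine opens the receptor, a ring of α, β and δ subunits with a γ subunit in developing muscle or an ε subunit (Chrne) at mature synapses. The resulting depolarization moves the voltage sensor in the transverse tubule, the channel formed by Cacna1s with its accessory subunits, which opens Ryr1 in the facing sarcoplasmic reticulum. Calcium leaves the store, starts contraction and is pumped back by the SERCA pumps encoded by the Atp2a genes. Quiescent satellite cells are not known to form triads, the junctions that hold this machinery, and many of its genes are switched on when myoblasts differentiate, by myogenic factors such as MyoD and myogenin, which bind the E-box, CANNTG.

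Promoters of 5 of the 10 genes (Ryr1, Cacna1s, Atp2a1, Chrna1 and Chrng) were in the RefSeq promoter table (GRCm38.p6), and those of the receptor subunits Chrna1 and Chrng are shown because both genes rose together and their windows hold several E-boxes. The stretches run from -180 to -31 relative to the annotated start, 150 bases with no annotated exon, and capitals mark CANNTG. The RefSeq start used for Chrng lies inside the gene as GENCODE places it (from 87204657), so that by that annotation the Chrng stretch is intronic.
Chrna1 (chr2:73580369-73580518, minus strand): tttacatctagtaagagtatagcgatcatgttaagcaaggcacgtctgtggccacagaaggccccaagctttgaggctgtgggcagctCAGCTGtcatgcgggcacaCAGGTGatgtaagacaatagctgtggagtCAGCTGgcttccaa
Chrng (chr1:87205631-87205780, plus strand): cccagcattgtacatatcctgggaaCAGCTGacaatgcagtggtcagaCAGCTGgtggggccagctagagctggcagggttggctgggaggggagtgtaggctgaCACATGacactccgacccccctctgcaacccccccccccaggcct
CAGCTG, a form of CANNTG that reads the same on both strands and so is counted in both motifs, began at -92 and -44 in Chrna1 and at -155 and -132 in Chrng. In the 250 bases before the start, CANNTG occurred 3 times in Chrna1, 3 times in Chrng, 2 times in Cacna1s, 1 time in Atp2a1 and 0 times in Ryr1. In the same bases, CAGCTG occurred 1 time in Cacna1s, 1 time in Atp2a1 and 0 times in Ryr1, which also rose. Of all 32851 promoters of the table, 66.2% held at least 1 CANNTG and 31.8% at least 2 in the same length, and 13.0% held at least 1 CAGCTG and 1.26% at least 2. These are matches of letters, not measured binding sites. Both promoters shown were picked for their rise and their E-boxes, so that setting them beside all promoters is a description alone. Any part of E-boxes in the rise was not tested.

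Of the 9 genes with a row, 6 passed the filter on low counts and were tested with edgeR's quasi-likelihood test, and all 6 were past a Benjamini-Hochberg adjusted p of 0.1. Chrna1, Chrng, Chrnd, Cacng1 and Ryr1 rose in overloaded libraries and Atp2a2 fell, where 25.8% of the 7228 genes tested rose and 26.3% fell (52.1% in either direction). The groups did not overlap in CPM in any of the 6 genes, as in 37.5% of all tested genes with higher and 35.4% with lower values under overload. Chrng, Chrnd, Cacng1 and Ryr1 passed the filter only through the overloaded libraries, so that the count of these genes is given as a description alone. Stac3, Atp2a1 and Ryr3 were too low to be tested. Summed over the 9 genes, the level was 705.2 and 552.7 CPM in sham and 1227 and 1450 CPM in overloaded libraries, from 162, 122, 472 and 716 UMIs.

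**Figure D1:**
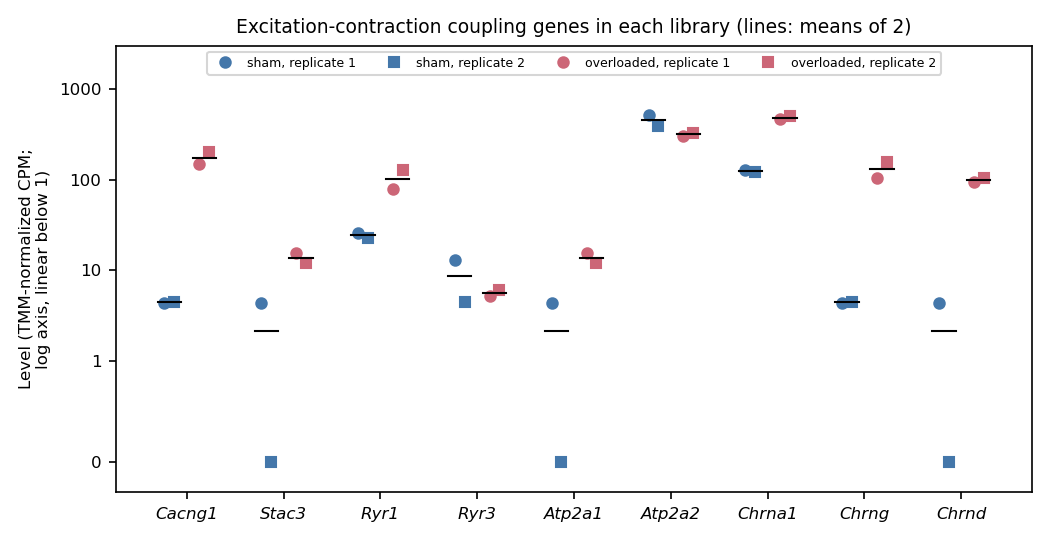
Level of each of the 9 genes in TMM-normalized CPM (log axis, linear below 1) in the 2 sham and 2 overloaded libraries, with lines at the means. Cacng1, Ryr1, Chrna1, Chrng and Chrnd sit higher in both overloaded libraries, Stac3 and Atp2a1 rest on at most 6 UMIs a library, Ryr3 overlaps, and Atp2a2 is lower on this scale (mean 456 against 315.8 CPM) but overlaps in UMIs per tube.

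The genes were read beside markers of the cell types that the tubes could hold. All 6 tested of the 7 markers of differentiating myocytes rose. Their summed level was 439.6 and 330.7 CPM in sham and 2470 and 2641 CPM in overloaded libraries, with Myog (myogenin) and Actc1 the most abundant over the 4 libraries (629 UMIs each), and Mymx, Myh8 and Tnnt2 had no UMI in sham. Of 12 adult myofibre markers, 11 were listed and 9 tested, and all 9 rose. Their sum was 2015 and 1169 CPM in sham and 3773 and 3578 CPM in overloaded libraries, led by Acta1. Of the 9, only Pvalb was followed through the alternative settings described below, so that the other calls were not checked in this way. Pvalb lost its call in DESeq2 (adjusted p = 0.484). Its log2 fold change of 0.68 was 1.52 without sham replicate 1 and 0.16 without sham replicate 2. Of the fast myosins, Myh4 had 10 and 5 UMIs in sham and 145 and 79 in overloaded libraries (log2 fold change 2.96, adjusted p = 8.81e-05), Myh1 and Myh2 had 0 in sham and at most 2 in an overloaded library, and Mb had no row. All 8 satellite cell markers were tested, and 5 fell and 2 rose on the CPM scale, with sums of 5611 and 4779 CPM in sham and 3879 and 3374 CPM in overloaded libraries. Sdc4 was the most abundant of them in sham and Myf5 in overloaded libraries. Pax7 fell from 499 ± 20.4 to 279 ± 2.39 CPM (SD, n = 2), although its UMIs per tube overlapped.

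Markers of cells outside the myogenic lineage were also present. Of 8 leukocyte markers, both tested ones (Lyz2 and Cd74) rose, with sums of 8.71 and 22.7 CPM in sham and 153.4 and 241 CPM in overloaded libraries. Lyz2 was the most abundant over the 4 libraries, 6 of the 8 had no UMI in sham, and Ptprc, which all leukocytes express, had 0, 1, 1 and 4 UMIs. Of 6 mural markers, Acta2 (the most abundant) and Rgs5 were tested and rose, with sums of 578.9 and 525.5 against 1048 and 1219 CPM, and the smooth muscle myosin Myh11 had no UMI in sham. The 5 fibroblast markers summed to 1306 and 1268 against 1355 and 1158 CPM, led by Col1a1, with Ly6a rising, Dcn falling and Pdgfra without a UMI in sham. None of the 5 endothelial markers (34.8 and 18.1 against 83.2 and 56.7 CPM, led by Pecam1 in sham and Cdh5 in overloaded libraries, with Cldn5 at 0 in sham) was high enough to be tested. The part of any of these cell types in the results on the 9 genes was not tested.

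**Figure D2:**
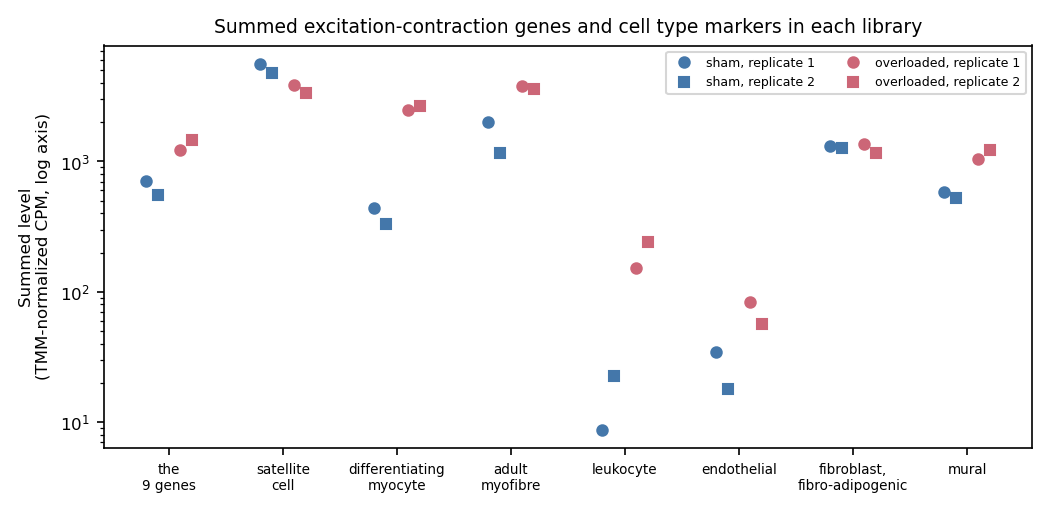
Summed level (TMM-normalized CPM, log axis) of the 9 genes and of each list of cell type markers in the 2 sham and 2 overloaded libraries. The 9 genes and the markers of differentiating myocytes, adult myofibres, leukocytes, endothelial and mural cells are higher in both overloaded libraries, satellite cell markers are lower on this scale, and the fibroblast list overlaps.

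All 3 acetylcholine receptor subunit genes rose in overloaded libraries. Chrna1 (ENSMUSG00000027107, GRCm38 chr2:73563215-73580338, minus strand, 9 exons, counted here and below in the longest transcript) encodes the α1 subunit, which binds acetylcholine and is part of every muscle receptor. It had 29 and 27 UMIs in sham and 179 and 246 in overloaded libraries, or 126.2, 122.3, 465.4 and 498.2 CPM. Both overloaded libraries were well above both sham libraries, and the libraries of a group lay close together (124 ± 2.77 and 481.8 ± 23.2 CPM; SD, n = 2). The fitted log2 fold change was 1.95 (SE 0.198, adjusted p = 1.03e-06).

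Chrng (ENSMUSG00000026253, chr1:87204657-87212694, plus strand, 12 exons) encodes the γ subunit of the receptor of developing and denervated muscle. It had 1 UMI in each sham library and 40 and 78 in the overloaded libraries (4.35, 4.53, 104 and 158 CPM). The gene was close to undetected in sham cells and well detected in both overloaded tubes. Ratios here and below are of UMIs summed over each group, each divided by the group's summed library sizes after TMM scaling. For Chrng the ratio was 30.3 (exact 95% binomial interval 8.19 to 253, counting error only) and the fitted log2 fold change 4.79 (SE 0.581, adjusted p = 6.7e-06). Chrne, the ε subunit that takes the place of γ at the mature synapse, had no row.

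Chrnd (ENSMUSG00000026251, chr1:87190607-87200070, plus strand, 11 exons), the δ subunit gene, lies 4586 bases from Chrng on the same strand. It had 1 and 0 UMIs in sham and 36 and 52 in overloaded libraries, or 4.35, 0, 93.6 and 105.3 CPM. The overloaded libraries again stood apart from sham, with a ratio of 45.1 (95% interval 7.89 to 1800) and a fitted log2 fold change of 5.27 (SE 0.685, adjusted p = 1.37e-05). The only sham UMI was in replicate 1, and without that library the fitted value was 8.20 and depended on the prior count, while it was 4.42 without sham replicate 2. None of the 3 subunit genes overlaps another annotated gene.

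Chrnb1, the β1 subunit gene, was not among the 10 genes and went the other way on the CPM scale. It had 93 and 68 UMIs in sham and 71 and 78 in overloaded libraries, and its level fell from 356.4 ± 68.4 to 171.3 ± 18.8 CPM (log2 fold change -1.07, SE 0.195, adjusted p = 0.000329). Counted per tube without scaling, its UMIs overlapped between the groups (log2 fold change -0.11, adjusted p = 0.716).

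The make-up of the receptor's transcripts does not depend on scaling, because it compares genes within a library. Chrnb1 made up 75.0% (exact Clopper-Pearson 95% interval 66.4 to 82.3) and 70.8% (60.7 to 79.7) of the subunit UMIs in the sham libraries and 21.8% (17.4 to 26.7) and 17.2% (13.8 to 21.0) in the overloaded libraries. The intervals of the groups were far apart, and those within a group overlapped. Chrna1 went from 23.4% and 28.1% in sham to 54.9% and 54.2% in overloaded libraries. Chrng took 0.806% and 1.04% in sham and 12.3% and 17.2% in overloaded libraries, and Chrnd 0.806% and 0% against 11.0% and 11.5%. Sham transcripts were thus mainly of the β1 subunit with α1, and overloaded transcripts were of all 4 listed subunits with α1 the most abundant. The totals behind these shares were 124, 96, 326 and 454 UMIs, and the intervals cover counting error only.

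**Figure D3:**
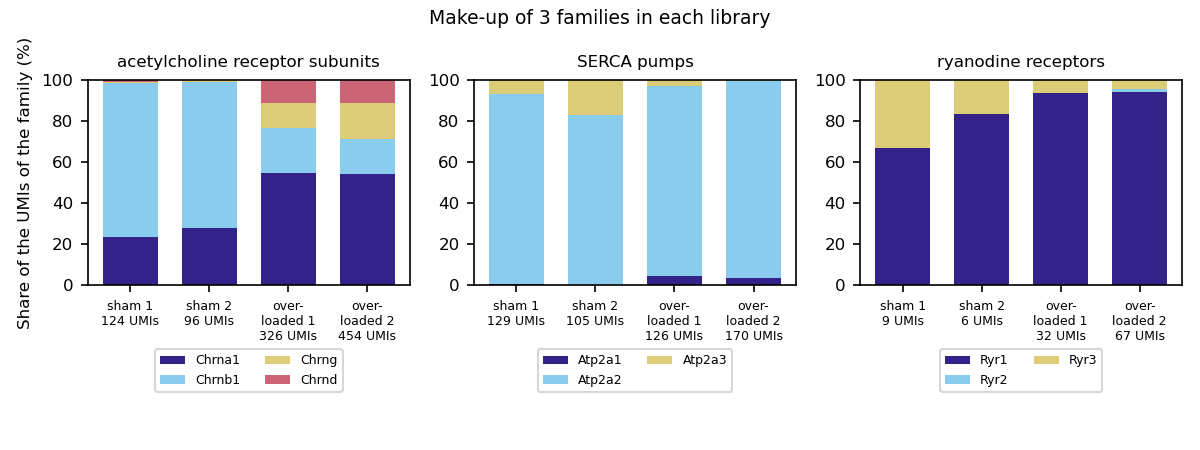
Share of each gene (%) among the UMIs of the acetylcholine receptor subunits, the SERCA pumps and the ryanodine receptors in each library, with the UMIs of the family under each bar. Chrnb1 falls from 75.0% and 70.8% of the receptor UMIs in sham to 21.8% and 17.2% in overloaded libraries, Atp2a2 makes up at least 82.9% of the pump UMIs in every library, and the sham bars of the ryanodine receptors rest on 9 and 6 UMIs.

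Genes that gather the receptor at the synapse did not move as one. Dok7, an adaptor that activates the kinase MuSK, had 3 and 4 UMIs in sham and 24 and 57 in overloaded libraries and rose (log2 fold change 2.52, adjusted p = 0.000758). Musk itself had 17 and 23 UMIs in sham and 20 and 10 in overloaded libraries (log2 fold change -1.36, adjusted p = 0.0141), and this call was lost without overloaded replicate 2 (-0.77, adjusted p = 0.174; -2.10 without overloaded replicate 1), in DESeq2 (adjusted p = 0.134) and per tube (-0.41, adjusted p = 0.433). Rapsn, the scaffold that binds the receptor, had 17, 20, 24 and 48 UMIs and did not pass the test (log2 fold change -0.015, SE 0.33, adjusted p = 0.977), its sign turned in 7 of the alternatives, and per tube it was past the threshold as higher (0.96, adjusted p = 0.0544). Myog, one of the differentiating myocyte markers above, rose from 224 ± 3.09 to 605 ± 48.5 CPM (log2 fold change 1.43, adjusted p = 9.96e-06). Chrna1, Chrng and Chrnd rose on the same scale and Chrnb1 fell, and a link with Myog was not tested.

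Among the genes of the voltage sensor, Cacng1 (ENSMUSG00000020722, chr11:107703218-107716522, minus strand, 4 exons) encodes the γ1 subunit, which is found in skeletal muscle. It had 1 UMI in each sham library and 57 and 99 in the overloaded libraries, or 4.35, 4.53, 148.2 and 200.5 CPM. Sham tubes were at the limit of detection and both overloaded tubes far above it. The ratio was 40.0 (95% interval 10.9 to 333) and the fitted log2 fold change 5.20 (SE 0.514, adjusted p = 8.93e-07), with 4.93 to 5.39 when each library was left out in turn.

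Stac3 (ENSMUSG00000040287, chr10:127501686-127508823, plus strand, 12 exons), the adaptor that couples the voltage sensor to Ryr1, had 1 and 0 UMIs in sham and 6 in each overloaded library. Both overloaded libraries were above both sham libraries, but the ratio of 6.15 had an interval of 0.911 to 263. With no filter the log2 fold change was 2.51 and the adjusted p 0.132, so that a difference was not detectable at this depth. Of the other voltage sensor genes, Cacnb1 (the β1 subunit) had 2, 3, 10 and 19 UMIs and was not tested, with a ratio of 2.97 (1.14 to 9.84). Cacna2d1, the α2δ1 subunit, which tissues other than muscle also express, had 26 and 23 UMIs in sham and 55 and 65 in overloaded libraries and did not pass (log2 fold change 0.33, adjusted p = 0.288), although it did with library sizes alone (0.61, adjusted p = 0.0511) and per tube (1.29, adjusted p = 0.00349).

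Of the release channels, Ryr1 (ENSMUSG00000030592, chr7:29003344-29125179, minus strand, 106 exons) is the isoform that skeletal muscle uses for contraction. It had 6 and 5 UMIs in sham and 30 and 63 in overloaded libraries (26.1, 22.7, 78.0 and 127.6 CPM). The groups did not overlap, and the overloaded libraries differed more from each other (102.8 ± 35.1 CPM; SD, n = 2) than the sham libraries (24.4 ± 2.45 CPM). The log2 fold change was 2.08 (SE 0.43, adjusted p = 0.000905), with 1.66 to 2.38 when each library was left out. The gene overlaps Mir1963 on its own strand and Gm38979, Gm44408 and Gm26604 on the other, and since the strand setting of the counting is not given, their reads cannot be told apart.

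Ryr3 (ENSMUSG00000057378, chr2:112631355-113217096, minus strand, 104 exons), an isoform of developing muscle and of other tissues, had 3 and 1 UMIs in sham and 2 and 3 in overloaded libraries. Aven overlaps the gene on the other strand. The groups overlapped, and the ratio of 0.641 (0.138 to 3.23) leaves either direction within counting error. Ryr2, the heart isoform, had 1 UMI in overloaded replicate 2 and 0 in the other libraries. Ryr1 made up 11 of 15 ryanodine receptor UMIs in sham (73.3%, 44.9 to 92.2) and 93 of 99 in overloaded libraries (93.9%, 87.3 to 97.7), and these intervals overlap.

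Of the 3 genes of inositol trisphosphate receptors, release channels of cells in general, Itpr1 and Itpr2 fell on the CPM scale, and Itpr3, with 4, 2, 5 and 3 UMIs, was not tested. Itpr2 had 46 and 45 UMIs in sham and 24 and 23 in overloaded libraries (log2 fold change -1.91, adjusted p = 2.44e-05), and it also fell per tube without scaling (-0.95, adjusted p = 0.0253). Itpr1 went from 122 ± 25.4 CPM to 52.0 and 30.4 CPM (log2 fold change -1.60, adjusted p = 0.00139), and this call was lost per tube (-0.65, adjusted p = 0.168). S100a1, a calcium-binding protein that acts on Ryr1, rose (log2 fold change 1.74, adjusted p = 0.0179), but not without sham replicate 1 (1.31, adjusted p = 0.112), without overloaded replicate 2 (1.20, adjusted p = 0.23; 2.34 without sham replicate 2), in DESeq2 (adjusted p = 0.213) or with offsets by abundance (0.60, adjusted p = 0.469).

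The pumps were dominated by Atp2a2 (ENSMUSG00000029467, chr5:122453513-122502225, minus strand, 21 exons), which encodes SERCA2, the pump of slow and heart muscle and, as another splice form, of most cells. It had 119 and 87 UMIs in sham and 116 and 163 in overloaded libraries, or 518, 394.1, 301.6 and 330.1 CPM. The groups did not overlap in CPM and overlapped in UMIs per tube. The log2 fold change was -0.53 (SE 0.178, adjusted p = 0.0228), and it was 0.44 per tube without scaling (adjusted p = 0.101), 0.084 with offsets by abundance (adjusted p = 0.733), -0.25 with library sizes alone (adjusted p = 0.242) and -0.32 without sham replicate 1 (adjusted p = 0.352). DESeq2 gave -0.53 with an adjusted p of 0.175. Splice forms were not counted apart, and Gm43359 and Gm43360 on the same strand and Gm43361 on the other overlap the gene.

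Atp2a1 (ENSMUSG00000030730, chr7:126445858-126463108, minus strand, 23 exons), the pump SERCA1 of fast fibres, had the same UMIs as Stac3, with 1 and 0 in sham and 6 in each overloaded library. It was therefore too low to be tested, with the same ratio of 6.15 (0.911 to 263), and Rabep2 overlaps it on the other strand. Atp2a3, the pump of non-muscle cells, had 9 and 18 UMIs in sham and 4 and 1 in overloaded libraries and fell (log2 fold change -3.31, SE 0.597, adjusted p = 0.000292), with -4.63 without overloaded replicate 1, -2.48 without overloaded replicate 2 and -2.71 without sham replicate 2. Atp2a2 made up 92.2% and 82.9% of the pump UMIs in sham and 92.1% and 95.9% in overloaded libraries, so that the groups overlapped in this share. Atp2a3 took 6.98% and 17.1% in sham against 3.17% and 0.588%, and Atp2a1 0.775% and 0% against 4.76% and 3.53%.

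Of the small membrane peptides that slow the pumps, Mrln (myoregulin) had 20 UMIs in each sham library and 3 and 22 in the overloaded libraries. Its overloaded libraries were far apart (7.8 and 44.6 CPM), and its log2 fold change of -1.65 (adjusted p = 0.00968) was -3.44 without overloaded replicate 2 and -0.98 without overloaded replicate 1, and not past the threshold per tube (-0.67, adjusted p = 0.308). Sln (sarcolipin) had 3, 1, 6 and 13 UMIs and Pln (phospholamban) 2, 0, 0 and 0, and neither was tested. Myofibre markers are given above for the same libraries, and their part in the values of the pump genes was not tested.

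A wider list of 57 other genes of the same machinery, written from knowledge of the pathway, had 52 genes in the table and 36 tested. Of these, 16 rose, 10 fell and 10 did not pass. The median log2 fold change was 0.42, also with the 2 genes without a sham UMI set at their bound, against 0.051 over all genes tested, of which 1868 rose and 1898 fell. The filter bears on this median: 9 of the 36 genes, all among the 16 that rose, passed it only through overloaded libraries, against 1095 of the 7228 genes tested (15.1%). Without such genes the median was -0.13 over the other 27 genes of the list and -0.14 over the other 6133 genes. Triad structure had 7 of 10 tested genes higher and 1 lower, store and buffers 4 of 5 higher and 1 lower, and release channels and regulators 3 of 8 higher and 3 lower. In the other roles, 1 of 5 genes of entry and extrusion rose and 1 fell, 1 of 4 at the synapse rose and 2 fell, both of uptake fell, and neither of the voltage sensor passed. Over all genes tested, 25.8% rose and 26.3% fell. The 9 genes that passed the filter only through overloaded libraries included Jph2, Trdn, Cav3 and Tmem38a of the triad. The rest were Casq1 and Casq2 (store), S100a1 (release), Orai1 (entry) and Dok7 (synapse). In DESeq2, Asph (adjusted p = 0.386) and Bin1 (adjusted p = 0.17) of the triad and Pvalb (adjusted p = 0.484) of the store lost their calls. Over 18 alternatives, Asph kept its call in 12, Bin1 in 16 and Pvalb in 16. Asph was also not past the threshold with counts thinned to the smallest library (adjusted p = 0.114).

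In the triad, the junctophilins tie the transverse tubule to the sarcoplasmic reticulum. Jph2 had 1 and 0 UMIs in sham and 16 and 19 in overloaded libraries, a ratio of 17.9 (3.02 to 729), and rose (log2 fold change 3.95, adjusted p = 0.000685), though not with offsets by abundance (1.83, adjusted p = 0.204). Its only sham UMI was in replicate 1, without which the fitted value was 6.88, and it was 3.10 without sham replicate 2. Jph1 had 15, 11, 23 and 23 UMIs and did not pass (log2 fold change -0.13, adjusted p = 0.793, with the sign turned in 4 alternatives). Jph2 was thus 1 of 27 junctophilin UMIs in sham (3.7%, 0.0937 to 19.0) and 35 of 81 in overloaded libraries (43.2%, 32.2 to 54.7), intervals that do not meet.

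Trdn (triadin), which anchors calsequestrin to Ryr1, had 3 UMIs in each sham library and 31 and 54 in overloaded libraries (log2 fold change 2.82, adjusted p = 0.000155). Cav3, the caveolin of muscle, had no UMI in sham and 18 and 22 in overloaded libraries, at least 6.84-fold higher against a floor of 3 UMIs over the sham group (adjusted p = 0.000131). Tmem38a, a potassium channel of the sarcoplasmic reticulum that balances charge during release, had 7 UMIs in each sham library and 40 and 62 in overloaded libraries (log2 fold change 1.88, adjusted p = 0.000531). In all 3 genes both overloaded libraries were above both sham libraries. Tmem38b, its relative in most tissues, rose less (log2 fold change 1.29, adjusted p = 0.00224), and the difference between the relatives was not tested.

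In the store, the calsequestrins bind calcium at high capacity. Casq2, the heart and slow muscle form, had no UMI in sham and 29 and 58 in overloaded libraries, at least 14.9-fold higher (adjusted p = 1.83e-05). Casq1, the form of fast muscle, had 1 and 4 UMIs in sham and 14 and 52 in overloaded libraries (log2 fold change 2.69, adjusted p = 0.00402). Casq1 was uneven within both groups, and its log2 fold change was 1.67 (adjusted p = 0.0824) when overloaded replicate 2 was left out, 2.01 without sham replicate 1 and 3.98 without sham replicate 2. Srl (sarcalumenin), a calcium-binding protein of the same lumen, had 6, 10, 52 and 81 UMIs (log2 fold change 2.07, adjusted p = 0.000116).

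Orai1, the pore of store-operated calcium entry, had 2 and 3 UMIs in sham and 34 and 46 in overloaded libraries and rose (log2 fold change 2.99, adjusted p = 0.000111). The other genes that fell were Speg (a kinase of muscle), Calr, Calm2 (a calmodulin gene) and Atp2b1 (a calcium pump of the plasma membrane), which are outside the rule for naming genes and are named after their values were seen. Calr (calreticulin, the calcium buffer of the endoplasmic reticulum) had 187 and 178 UMIs in sham and 172 and 196 in overloaded libraries (log2 fold change -0.94, adjusted p = 0.000163), and per tube its value was 0.012 (adjusted p = 0.954). None of these 4 genes kept its call per tube without scaling. With offsets by abundance, the call was also lost for Calr (-0.12, adjusted p = 0.517), Calm2 (-0.001, adjusted p = 0.997) and Atp2b1 (0.13, adjusted p = 0.526). Speg kept its call with these offsets (-1.11, adjusted p = 0.000892).

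**Figure D4:**
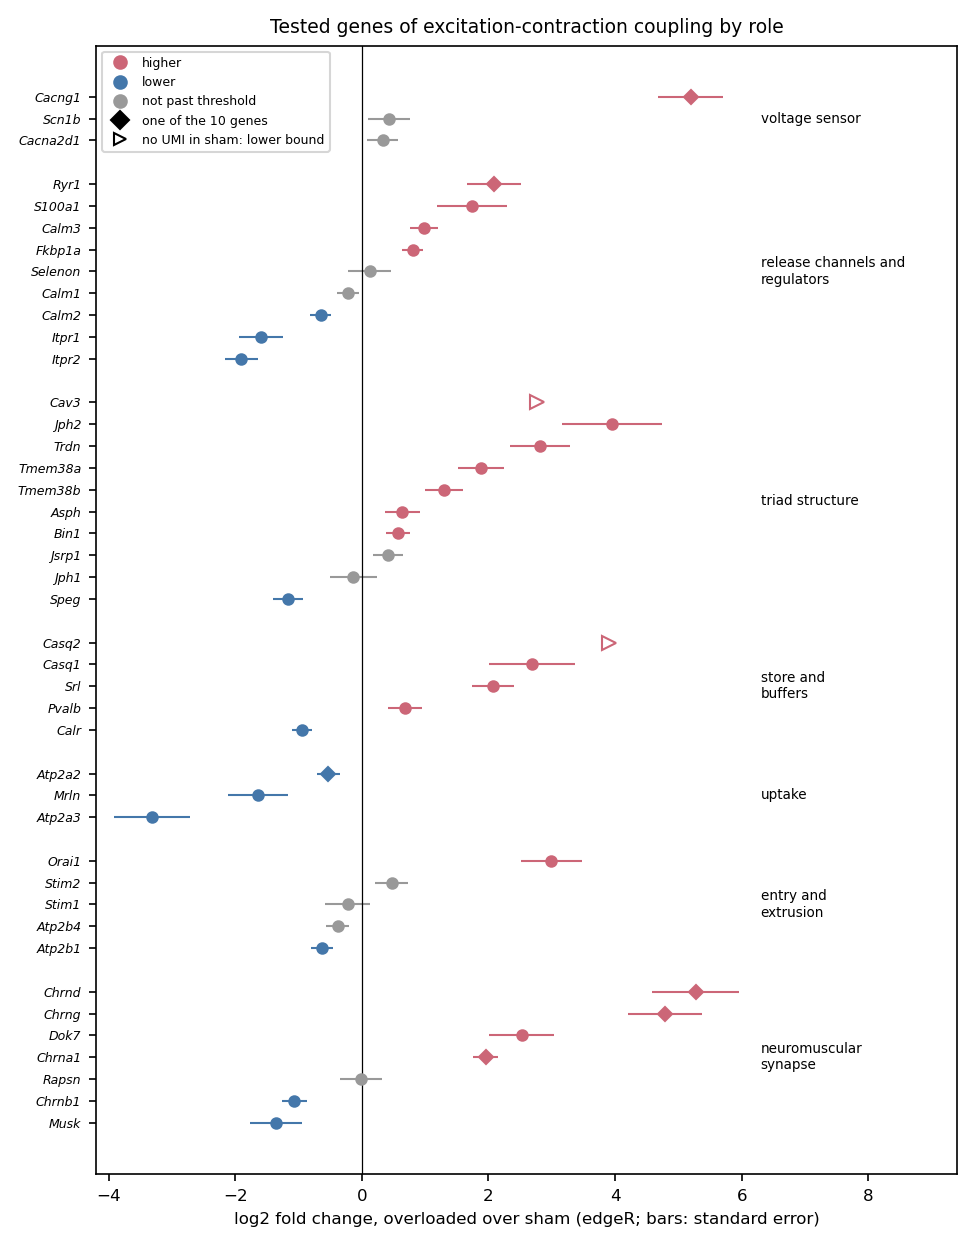
Log2 fold change of overloaded over sham (points, with bars for the standard error of edgeR's fit) for the 6 tested genes of the 10 (diamonds) and the 36 tested genes of the wider list (circles), grouped by role, with triangles at the lower bound for genes without a sham UMI. Among genes with a sham UMI, the largest fitted values are those of Chrnd (5.27), Cacng1 (5.20) and Chrng (4.79), and of the genes drawn as lower, Atp2a2, Calm2, Calr and Atp2b1 lay above 0 when UMIs per tube were not scaled.

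Since each molecule is counted once at its end, the levels of the 9 genes can be set in order without a length correction, although capture may differ between genes. In sham libraries, Atp2a2 was first (456 ± 87.6 CPM), followed by Chrna1 (124 ± 2.77) and Ryr1 (24.4 ± 2.45). These did not overlap, and no sham library had more than 3 UMIs of any of the other 6 genes, which were not ordered. In overloaded libraries, Chrna1 (481.8 ± 23.2 CPM) stood above Atp2a2 (315.8 ± 20.1), followed by Cacng1 (174 ± 37.0), Chrng (131 ± 38.1), Ryr1 (102.8 ± 35.1) and Chrnd (99.5 ± 8.27). Neighbours from Cacng1 to Chrnd overlapped between libraries, but within each overloaded library Cacng1 stood above Chrng and Chrng above Ryr1 and Chrnd, whose order turned between the libraries. Stac3 and Atp2a1 (13.9 ± 2.44 CPM each) and Ryr3 (5.64 ± 0.619) were last.

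The tested genes outside the lists whose pattern over the 4 libraries was nearest to that of the 9 summed genes were Mospd3, Ciao2b, Etfrf1, Tmem60 and B4galt1. Their distances, Euclidean over the 4 centred log2 CPM values, were 0.0224, 0.0502, 0.0745, 0.0815 and 0.0827. These genes shared the lower value of sham replicate 2 against sham replicate 1 and the higher value of overloaded replicate 2 against overloaded replicate 1. Their own log2 fold changes lay between 1.07 (Etfrf1, adjusted p = 0.104) and 1.14 (Tmem60, adjusted p = 0.041), and they were chosen for this likeness, so that these values are a description.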

How the data were processed

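RNA-seq libraries of MuSCs from 2 sham and 2 overloaded plantaris samples were analysed. The authors extracted barcodes and UMIs with UMI-tools (version 1.0.0), aligned the reads to GRCm38 with HISAT2 (2.1.0), assigned them to genes with featureCounts (1.6.4) and deposited the resulting UMI count per gene and library, without normalization. The annotation release and strand setting are not given in the sources used here. UMIs of 1 molecule are collapsed before counting, so that PCR copies do not add to a count.

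Genes were kept by filterByExpr (minimum count 10, minimum total 15) and tested with edgeR (4.0.16, R 4.3.3; TMM, glmQLFit, glmQLFTest, surgery as the only term) over 7228 genes, with Benjamini-Hochberg adjustment and the threshold of 0.1 that the study's methods use. The common biological coefficient of variation was 9.5%, and 3732 genes had an unadjusted p under 0.05. Fitted log2 fold changes used a prior count of 0.125. Ratios and shares have exact Clopper-Pearson intervals of 95%, and a gene without a sham UMI is given against a floor of 3 UMIs over the group, for counting error only. An exact permutation test of a single value, 2 libraries against 2, cannot go below p = 0.333 (two-sided), and none is given. In a chi-square comparison, the libraries of a group differed by 1.31 (sham) and 1.5 (overloaded) times sampling noise per degree of freedom, so that neither pair was taken for 1 library given 2 times, which says nothing on whether the tubes came from different mice.

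Gene positions are from GENCODE (GRCm38), in which all 19353 identifiers were found, and promoters from RefSeq. The members, the wider list and the marker lists were chosen with earlier results of these data known, and 1 further marker list is not reported here. All 10 members were named, with 15 genes of the wider list whatever their values (Ryr2, Atp2a3, Chrnb1, Chrne, Casq1, Casq2, Sln, Pln, Jph1, Jph2, Trdn, Cacnb1, Cacna2d1, Musk and Rapsn) and, of its other genes past the threshold without overlap, the 10 with the largest log2 fold change. On simulated counts with 169 changed genes among 7108 tested, 94% of 4-fold and 52.3% of 2-fold changes were found, with 0 in the wrong direction and 5 unchanged genes called. Alternatives were size factors of DESeq2, upper-quartile factors, library sizes alone, no scaling (per tube), loess offsets by abundance, DESeq2 (1.42.0), limma-voom (limma 3.58.1), no filter, at least 10 counts in every library of 1 group, a threshold of 0.05, the replicate number as a block, counts thinned to the smallest library, a robust fit, a prior count of 2, and each library left out in turn. With 1 library left in a group, that library was assumed to vary like the other group.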

Additional observations from a re-analysis of the deposited data

How the results depend on the processing

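Chrna1, Chrng, Chrnd, Cacng1 and Ryr1 kept their direction and their call in all 17 alternatives run for them, with log2 fold changes of 1.89 to 2.92, 3.73 to 5.72, 3.69 to 8.20, 4.12 to 6.12 and 1.66 to 3.05. Atp2a2 did not: its log2 fold change was -0.25 with library sizes alone, -0.53 in DESeq2 (past the threshold in neither), and above 0 per tube without scaling (0.44) and with loess offsets (0.084), and it ran from -0.71 to -0.32 when each library was left out, with the call lost without sham replicate 1. The count of members that fell was therefore 0 in those 4 settings and 0 to 1 when each library was left out. Per tube, 24 genes of the wider list rose and 2 fell instead of 16 and 10, and 12 rose in DESeq2. Over all genes, 4481 rose and 331 fell per tube, and 762 rose and 1049 fell in DESeq2, where the main counts were 1868 and 1898. The share of Atp2a2 among the pump UMIs in sham was 88.0% summed, 92.2% in replicate 1 and 82.9% in replicate 2.

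The median log2 fold change of all genes tested was 0.051 with TMM, 0.14 with upper-quartile factors, 0.33 with library sizes alone, 0.30 with no filter and 1.01 per tube, and 49.6%, 55.6%, 66.6%, 57.6% and 93.1% of the calls were rises (42.1% in DESeq2), so that falls are relative to these scales. Sham muscles were contralateral ones in other experiments of the study, and whether these sham and overloaded libraries share mice is not given. Same-numbered samples did not deviate together (correlation -0.0329, from only 2 pairs), so that the numbers were not taken as a pairing. With the replicate block, 3670 genes were called instead of 3766, the members' calls stayed at 5 that rose and 1 that fell, and Ryr1 and Cacng1 had log2 fold changes of 2.05 and 5.18.

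With 260488 to 483528 UMIs per library, 1 to 3 sham UMIs leave wide intervals, and Stac3, Atp2a1 and Ryr3 could not be judged.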
